A study of Mus musculus with 12 samples.

Results

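Kinesins are motor proteins that use ATP to move along microtubules or to take their ends apart. Their genes were examined in cultured mouse testis cells by RNA sequencing. Members were chosen by gene symbol alone, as Kif or Kifc followed by a number and at most a short suffix. The rule found 41 kinesins among the 17995 genes with values. By their textbook roles, 12 were taken as mitotic kinesins (Kif2c, Kif4, Kif11, Kif14, Kif15, Kif18a, Kif18b, Kif20a, Kif20b, Kif22, Kif23 and Kifc1). A further 15 were taken as transport kinesins (Kif1a, Kif1b, Kif1c, Kif3a, Kif3b, Kif3c, Kif5a, Kif5b, Kif5c, Kif13a, Kif13b, Kif16b, Kif17, Kifc2 and Kifc3), and the remaining 14 as other kinesins.

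The 12 libraries came from the mouse lines C18-4, made from spermatogonial stem cells, and TM4, made from Sertoli cells, the nurse cells of the germ line. Each of the 4 groups had 3 libraries. The labels give the strain as IRC for all of them and give no age. Cells of each line carried either shNC, a control hairpin, or shM5, a mixture of 3 hairpins against the transcript of Chrm5, which encodes the muscarinic acetylcholine receptor M5. Both hairpins were delivered from the same lentiviral backbone. The sources used here do not say when the cells were harvested for RNA, or whether libraries of a group came from separate cultures, so p-values measure only the spread between these libraries. The study asked what loss of M5 does to germ and Sertoli cells. Levels are given as RPKM, the reads on a gene scaled for its length and for the size of the library, so that levels of different genes can be compared.

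In a dividing cell, mitotic kinesins build the spindle, move and align chromosomes and organise the midzone where the cell is cut apart, and their genes are known to be transcribed mostly in the later cell cycle. Transport kinesins carry vesicles, organelles and ciliary material and are used through the whole cycle. In the testis, both kinds act: spermatogonia divide by mitosis, while Sertoli cells in the adult have stopped dividing and use microtubule tracks to move cargo and germ cells.

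Several facts of the libraries bear on all results below. Chrm5 was listed at 0 to 0.01 RPKM in all 12 libraries, so the targeted gene could not check the labels. Defining markers went against the labelled cell types in part. Of the spermatogonial markers, Kit was listed at 0 and Zbtb16, Ddx4, Dazl and Ret at up to 0.05 RPKM in C18-4 libraries, while Wt1, a Sertoli marker, stood at 53.9 to 72.3 RPKM there. Id4 stood at 1.64 to 4.71 RPKM and Etv5 at 1.63 to 2.29 RPKM in C18-4 libraries, where the spermatogonial list summed to 4.61 to 6.68 RPKM. TM4 libraries held Etv5 at 5.98 to 7.49 RPKM, Id4 at up to 0.2, Wt1 at 0.06 to 0.15, Amh at up to 0.19 and Sox9 at 1.11 to 1.74 RPKM. The spermatogonial list summed higher in TM4 than in C18-4 libraries, at 9.72 to 17.27 RPKM. Its member Bcl6b stood at 3.56 to 9.66 RPKM in TM4 and at up to 0.09 RPKM in C18-4 libraries. Summed over each list, markers of Leydig cells reached at most 1.58 RPKM and those of macrophages at most 4.28 RPKM in any library. Markers of peritubular myoid cells summed to 61.9 to 77.9 RPKM in C18-4 shNC libraries and to 113 to 158 RPKM in C18-4 shM5 libraries. Acta2 and Tagln led these sums, and the defining Myh11 reached at most 0.07 RPKM. Myoid sums of TM4 libraries are given below. The TM4 library shNC replicate 3 stood apart from its group. Its root mean square log2 distance over all genes was 0.64 to both other shNC libraries but 0.20 to 0.26 to the shM5 libraries. In C18-4 cells, replicate 3 of each group stood apart from replicates 1 and 2, at distances of 0.38 to 0.44. Depth is unknown, because RPKM keeps no read numbers.

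Of the 41 kinesins, 12 mitotic, 12 transport and 8 other members reached a mean of 0.5 RPKM in the C18-4 libraries and were tested there. Kif9 and Kif27, both linked to motile cilia, fell below this filter in TM4 libraries, which left 30 members. The remaining 9 were listed close to 0. Kif1a, the synaptic vesicle kinesin, and Kif12 were listed at 0 in all 12 libraries. Kif5a, the neuronal kinesin-1 heavy chain, reached at most 0.22 RPKM, and Kif17, Kif19a, Kif26a, Kif26b, Kif28 and Kif6 stayed at or below 0.18 RPKM.

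Mean levels over the 12 libraries ran from 0.258 RPKM (Kif27) to 86.5 RPKM (Kif20a) among the tested members. Kif20a, which carries the chromosomal passenger complex to the midzone, was the highest of all by this mean. Its exons overlap the opposite-strand gene Cdc23 over 29.3% of their bases. Among mitotic members Kif11, the motor that pushes spindle poles apart, came next at 44.6 RPKM, and Kif23, the motor subunit of centralspindlin needed for cytokinesis, at 38.7 RPKM. Kif14, a midbody kinesin, was the lowest mitotic member at 5.47 RPKM. Among transport kinesins, Kif5b, the ubiquitous kinesin-1 heavy chain, stood at 80.7 RPKM, ahead of the kinesin-3 motors Kif1c at 38.8 and Kif1b at 20.01 RPKM. Kif5b alone made up 31.4% to 46.4% of the summed transport level in a library. Kif2a, a microtubule depolymerase, led the other kinesins at 32.1 RPKM.

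**Figure D1:**
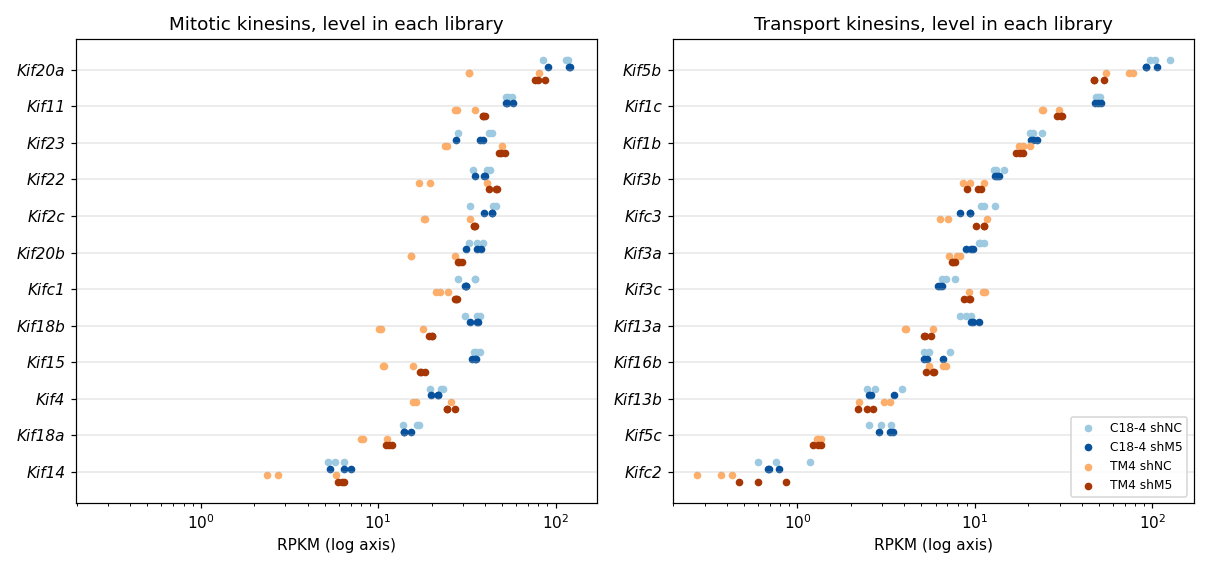
Level of each tested mitotic kinesin (left) and transport kinesin (right) in every library, in RPKM on a log axis, with 1 point per library and 1 row of points per group. In TM4 shNC (light orange), 2 libraries lie to the left of the rest for most mitotic kinesins, as for Kif20a at 32.5 and 32.6 RPKM against 81.1 RPKM in the other library.

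The order of neighbouring levels was not always resolved. Kif5b had a higher mean than Kif20a in both shNC groups, and Kif20a the higher mean in both shM5 groups. In the C18-4 shNC libraries, Kif22 (39.4 ± 4.72 RPKM, SD, n = 3), Kif2c (41.3 ± 7.19) and Kif23 (38.0 ± 8.45) lay within their spread of each other, while Kif20a (106 ± 18.3) lay above all 3. In the TM4 shM5 libraries, where the spread was smallest, Kif20a (81.2 ± 5.56), Kif23 (49.6 ± 1.84), Kif22 (44.9 ± 2.27) and Kif11 (39.3 ± 0.539) ranked without overlap.

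Promoter sequences are shown because most mitotic members share letters near their start that transport members mostly lack. A link between these letters and the levels in the libraries was not tested. The windows were taken from RefSeq promoters of GRCm38.p6, from 250 bases before to 50 after the transcript start. They held 36 windows of 32 kinesin genes. Kif20a, Kif5a, Kif5b, Kif13b, Kifc2, Kifc3, Kif19a, Kif21b and Kif28 were not among them. The 12 transport windows came from 10 genes, with repeated windows for Kif1a and Kif1b. They thus do not stand for the 12 transport members that were tested. On both strands 2 motifs were searched: the core of the cell cycle genes homology region (CHR), as TTTGAA or TTCGAA, and the CCAAT box, as CCAAT. The 8 stretches printed run from 80 bases before the start to 25 bases of the transcript, 5′ to 3′ on the strand of the gene, with matches to either motif in capitals. The first 6 are mitotic kinesins with a CHR core within 40 bases of the start, and reverse-strand matches read TTCAAA or ATTGG:
Kif23: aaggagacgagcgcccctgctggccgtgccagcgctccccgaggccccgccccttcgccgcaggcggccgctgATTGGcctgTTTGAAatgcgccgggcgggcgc
Kif22: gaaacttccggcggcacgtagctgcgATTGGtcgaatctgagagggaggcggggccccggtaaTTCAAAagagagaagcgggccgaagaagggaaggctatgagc
Kif11: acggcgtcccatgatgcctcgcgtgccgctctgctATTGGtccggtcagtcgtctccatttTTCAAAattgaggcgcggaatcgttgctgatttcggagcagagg
Kif15: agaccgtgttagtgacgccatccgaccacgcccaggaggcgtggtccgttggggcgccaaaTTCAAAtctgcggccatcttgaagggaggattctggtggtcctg
Kif18b: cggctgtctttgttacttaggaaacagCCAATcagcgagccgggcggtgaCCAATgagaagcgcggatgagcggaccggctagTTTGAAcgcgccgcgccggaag
Kif20b: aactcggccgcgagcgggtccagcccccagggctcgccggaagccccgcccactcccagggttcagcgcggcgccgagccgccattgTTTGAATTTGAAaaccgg

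For contrast, 2 transport kinesins are shown. The Kif1c stretch holds neither motif, and that of Kif3b, a motor subunit of the ciliary kinesin-2, holds a CCAAT box only:
Kif1c: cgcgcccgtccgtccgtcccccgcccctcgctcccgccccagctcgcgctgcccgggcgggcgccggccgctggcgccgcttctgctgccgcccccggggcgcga
Kif3b: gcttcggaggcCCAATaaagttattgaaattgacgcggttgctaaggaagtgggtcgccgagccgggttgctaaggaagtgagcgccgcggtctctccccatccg

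Positions of the mitotic stretches, in GRCm38.p6, were Kif23 chr9:61946775-61946879 on the minus strand, Kif22 chr7:127042396-127042500 on the minus strand, Kif11 chr19:37376302-37376406 on the plus strand, Kif15 chr9:122951001-122951105 on the plus strand, Kif18b chr11:102925100-102925204 on the minus strand and Kif20b chr19:34922278-34922382 on the plus strand. Those of the transport stretches were Kif1c chr11:70700468-70700572 on the plus strand and Kif3b chr2:153291336-153291440 on the plus strand. Each surrounds an annotated transcript start of its gene, which need not be the outermost. The Kif1c stretch lies wholly inside the gene, which begins at 70700396. The Kif22 gene begins at 127042467, within its stretch and before the start used. Some windows counted below, such as those of Kif14 and Kif2c, also lie wholly inside their genes. The Kif23 gene itself spans 61917277 to 61946810 on chromosome 9.

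A CHR core stood in 10 of 11 mitotic windows (90.9%), in 1 of 12 transport windows (8.33%) and in 4 of 13 windows of other kinesins (30.8%). Over all 32851 RefSeq windows the share was 19.2%. Within 40 bases of the start, a distance chosen after the matches were seen, 8 of 11 mitotic windows and 0 of 12 transport windows held it, against 4.27% of all windows. Kif24, Kif26b and Kifc5b were the 3 other kinesins with such a match. The window of Kif18a held neither motif. The CCAAT box was found in 7 of 11 mitotic, 4 of 12 transport and 37.4% of all windows. Kif20b carries 2 adjacent CHR cores, and of the 6 shown Kif15 and Kif20b have no CCAAT box in their windows. A match is a stretch of letters in a window and was not tested as a binding site.

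**Figure D2:**
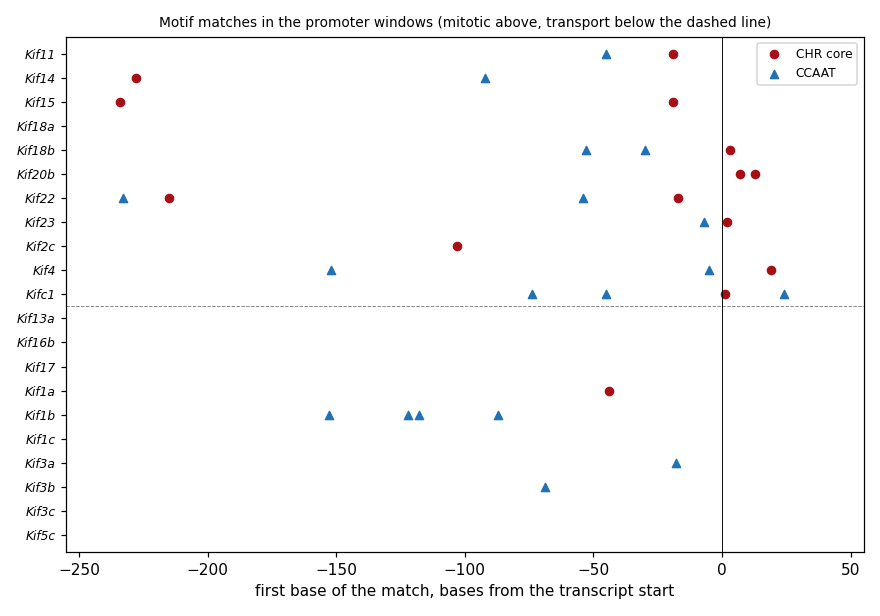
First base of each motif match in the promoter windows of mitotic kinesins (above the dashed line) and transport kinesins (below), in bases from the transcript start, counted as 0. CHR cores (red circles) lie within 40 bases of the start in 8 mitotic windows, and the only CHR core in a transport window belongs to Kif1a. CCAAT matches (blue triangles) lie in windows of both classes.

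In C18-4 cells, no kinesin passed the test between shM5 and shNC. By limma, 0 of 32 members had an adjusted p under 0.05, where 0.586% of all 11611 genes tested did. Mitotic members had a median log2 difference of -0.04 and transport members of -0.06, against -0.002 over all genes. Leaving out 1 library at a time gave 0 calls each time, and moved the medians from -0.10 to 0.03 for mitotic and from -0.16 to 0.04 for transport members. Unadjusted p-values were under 0.05 for 3 members, against 12.3% of all genes, and all 3 were lower under shM5.

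Those 3 were Kifc3, Kif3a and Kif7. Kifc3, a minus-end motor found at adherens junctions, stood at 11.2, 10.8 and 13.0 RPKM in shNC libraries and 9.37, 8.21 and 9.39 RPKM under shM5. Kif3a, the partner of Kif3b in kinesin-2, stood at 10.6, 10.7 and 11.3 RPKM against 9.46, 8.87 and 9.78 RPKM. Kif7, a regulator of Hedgehog signalling at the tip of the cilium, stood at 4.63, 4.79 and 4.38 RPKM against 3.72, 3.75 and 3.52 RPKM. For these members every shM5 library lay below every shNC library, and no other tested kinesin separated the groups in either direction. Groups did not overlap for 18.9% of all genes. The log2 differences were -0.37 ± 0.11 (SE) for Kifc3, -0.21 ± 0.09 for Kif3a and -0.32 ± 0.11 for Kif7, with limma adjusted p-values of 0.236, 0.385 and 0.283. With the replicate number as a block, Kifc3 alone was called, at an adjusted p of 0.0184, where 11.9% of all genes were called. Exons of Kifc3 overlap opposite-strand genes over 27.5% of their bases, and those of Kif7 over 20.3%, and strand was not stated for the counting.

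Kif23 shows how the replicates set the spread in this line. It stood at 42.1, 43.6 and 28.3 RPKM in shNC libraries and at 39.0, 37.5 and 27.4 RPKM under shM5. Replicate 3 was the lowest in each group, and the groups overlapped. The log2 difference was -0.13, with a 95% interval of -0.60 to 0.35 and an adjusted p of 0.88. With the replicate block the interval was -0.25 to 0.003 (adjusted p = 0.176), and each of the 3 same-numbered pairs was lower under shM5.

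Replicate 3 divided mitotic from transport kinesins in C18-4 cells. Replicates 1 and 2 of both groups were pooled as 4 libraries. Both replicate 3 libraries lay below all 4 for 10 of 12 mitotic, 0 of 12 transport and 0 of 8 other members. The share over all genes was 16.2%. Kif20a stood at 118, 115 and 84.9 RPKM in shNC libraries and 119, 121 and 91.0 RPKM under shM5. Kif11 was the exception that went the other way, at 52.8, 54.1 and 56.5 RPKM and at 52.9, 53.3 and 57.6 RPKM. Both replicate 3 libraries lay above all 4 pooled libraries for 6 of 12 transport and 4 of 8 other members, against 34.4% of all genes. Kif5b was among them, at 96.6, 103 and 125 RPKM in shNC libraries and 92.3, 92.5 and 106 RPKM under shM5. Kif1c, by contrast, stood at 50.8, 48.4 and 49.2 RPKM and at 49.6, 51.2 and 47.8 RPKM, with no library apart. Kif2c, which takes apart microtubule ends at kinetochores, followed the mitotic order at 46.3, 44.4 and 33.0 RPKM and at 43.6, 43.7 and 39.5 RPKM. Kif1b stood at 20.4, 21.3 and 23.8 RPKM in shNC libraries and at 21.3, 22.3 and 20.7 RPKM under shM5, so that replicate 3 was the highest in only the shNC group. ATF4 targets, a list of 10 amino acid response genes, summed to 1576 and 1516 RPKM in the replicate 3 libraries and to 1040 to 1094 RPKM in the other 4, and their part in the result was not tested.

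Without replicate 3 of either group, 9 of 30 members were called, where 26.2% of all genes were. Kif23 was then lower by a log2 difference of -0.17 ± 0.05 (adjusted p = 0.027), Kifc1, a minus-end motor that focuses spindle poles, by -0.17 ± 0.04 and Kif18a, which aligns chromosomes, by -0.20 ± 0.06. Kifc3, Kif3a, Kif7 and Kifc5b were also lower, and Kif13a, an endosomal motor, and Kif21b were higher. Thus 3 of 12 mitotic members were called, and the sizes of the 9 stayed at or below 0.33 on the log2 scale. Kifc1 and Kifc5b cannot be told apart with certainty, since 49.5% of the 35-base words of Kifc1 transcripts also occur in Kifc5b.

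In TM4 cells, the mitotic kinesins lay above the control mean as a group, while none passed the adjusted test. By limma, 0 of 30 members were called, and so were 0% of all 11016 genes. All 12 mitotic members had a positive log2 difference, from 0.27 to 0.91 with a median of 0.64. Transport members had a median of -0.03 and all genes of 0.04. Unadjusted p-values were under 0.05 for 10 of 12 mitotic, 1 of 12 transport and 2 of 6 other members, against 26% of all genes. The smallest adjusted p of any kinesin was 0.192, which was also the smallest of all genes.

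**Figure D3:**
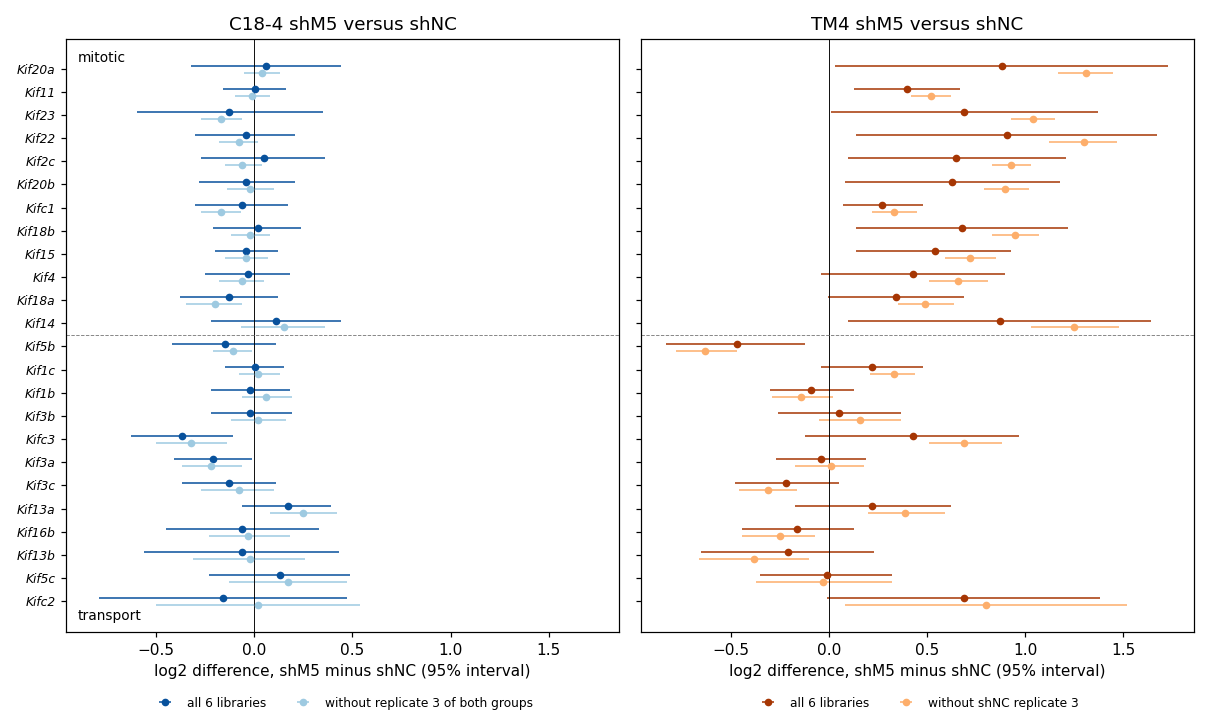
Log2 difference between shM5 and shNC libraries with its 95% interval, for mitotic kinesins (above the dashed line) and transport kinesins (below), in C18-4 cells (left) and TM4 cells (right). Dark points use all 6 libraries and light points leave out replicate 3 of both groups in C18-4 cells or shNC replicate 3 in TM4 cells. The mitotic intervals in TM4 cells narrow and move to the right without that library, to a median of 0.92.

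The spread came from shNC replicate 3. Kif23 stood at 23.8, 24.4 and 49.7 RPKM in shNC libraries and at 49.0, 48.1 and 51.7 RPKM under shM5. Kif20a stood at 32.5, 32.6 and 81.1 RPKM against 79.1, 76.9 and 87.5 RPKM. Kif22, a chromosome arm motor, stood at 16.9, 19.7 and 41.1 RPKM against 46.5, 45.9 and 42.3 RPKM. In each case the library shNC replicate 3 lay at or near the shM5 levels, and the other shNC libraries were far below. The log2 differences were 0.69 ± 0.28 for Kif23, 0.88 ± 0.35 for Kif20a and 0.91 ± 0.32 for Kif22, all with an adjusted p of 0.192.

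Other mitotic members followed the same order. Kif14 stood at 2.37, 2.73 and 5.79 RPKM in shNC libraries and 5.95 to 6.39 RPKM under shM5. Kif15, a spindle motor that can act beside Kif11, stood at 10.6, 10.8 and 15.8 RPKM against 17.2 to 18.5 RPKM. Kif11 itself stood at 27.0, 27.8 and 34.97 RPKM against 38.9 to 39.9 RPKM. Every shM5 library lay above every shNC library for 8 of 12 mitotic members, against 15.7% of all genes, and the exceptions were Kif4, Kif18a, Kif20a and Kif23. The smallest differences were those of Kifc1 (0.27 ± 0.09) and Kif18a (0.34 ± 0.14).

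Transport members showed no common direction, with 5 differences above 0 and 7 below. Kif5b stood at 73.8, 77.5 and 54.6 RPKM in shNC libraries and 46.6, 46.9 and 53.6 RPKM under shM5, a log2 difference of -0.47 ± 0.15. It was the only transport member whose shM5 libraries all lay below the shNC libraries, against 11.1% of all genes. Kifc2, a minus-end motor, was the only one whose shM5 libraries all lay above, at 0.47 to 0.86 RPKM against 0.27 to 0.43 RPKM. Its mean met the filter of 0.5 RPKM only through the shM5 libraries. Kif1c stood at 24.1, 23.8 and 29.95 RPKM against 30.4, 28.9 and 31.0 RPKM, and Kif1b at 18.7, 20.5 and 17.7 RPKM against 17.9, 18.6 and 16.9 RPKM. The Kif1b groups overlapped, and its log2 difference had a 95% interval of -0.30 to 0.13.

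Among other kinesins, Kif24, a centriolar kinesin that restrains cilium formation, had the largest difference of the family. It stood at 0.66, 0.64 and 1.18 RPKM in shNC libraries and 2, 2.34 and 1.69 RPKM under shM5, a log2 difference of 1.22 ± 0.27. Kif21b, a motor that limits microtubule growth, stood at 13.7, 13.7 and 8.79 RPKM against 7.24, 8.10 and 7.21 RPKM, a difference of -0.65 ± 0.19. Neither passed the adjusted test (adjusted p = 0.192 by limma for both). Again shNC replicate 3 lay between the other shNC libraries and the shM5 libraries.

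Across the family, shNC replicate 3 lay nearer to the shM5 mean than to the mean of the other shNC libraries for 12 of 12 mitotic, 11 of 12 transport and 5 of 6 other members. The same held for 84.9% of all genes, so the position of this library was not particular to kinesins. Summed over the 10 ATF4 targets, the TM4 shNC libraries stood at 2318, 2311 and 1165 RPKM and the shM5 libraries at 1090 to 1127 RPKM. Sertoli markers summed to 86.0, 84.8 and 48.1 RPKM in the shNC group and to 45.03 to 47.4 RPKM in the shM5 group, and Nr5a1 was at 0 in all 6. Markers of peritubular myoid cells summed to 127, 122 and 250 RPKM against 231 to 350 RPKM, led by Acta2 and Tagln, with the defining Myh11 at 0.01 RPKM or below. Their part in the kinesin levels was not tested. In bulk libraries, fewer cells of a type and less RNA per cell cannot be told apart.

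Without shNC replicate 3, 24 of 30 members were called by limma. All 12 mitotic members were higher under shM5, with log2 differences from 0.33 for Kifc1 to 1.31 ± 0.06 for Kif20a. Kif23 was higher by 1.04 ± 0.05 (adjusted p = 2.25e-06), Kif22 by 1.30 ± 0.08 and Kif14 by 1.25 ± 0.10. Of the transport kinesins, Kif1c, Kif13a, Kifc2 and Kifc3 were higher, Kifc2 having met the filter only through the shM5 libraries, while Kif3c, Kif5b, Kif13b and Kif16b were lower, from -0.25 ± 0.08 for Kif16b to -0.63 ± 0.07 for Kif5b. Kif24 was higher by 1.48 ± 0.18, and Kif2a, Kif21a and Kif21b were lower. Of all genes, 36.5% were called higher and 30.9% lower in that fit. No test of the lists was made. The library shNC replicate 3 was left out because its values lay near the shM5 libraries, which favours larger differences and a smaller spread. The p-values of this fit thus cannot be taken at face value, nor can those of other fits without a replicate 3 library. Without replicate 3 of every group, 25 of the members were called, where 72.7% of all genes were.

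The summed levels put the classes side by side. The 12 mitotic kinesins summed to 202, 209 and 368 RPKM in TM4 shNC libraries and 381 to 395 RPKM under shM5. In C18-4 cells the sums were 402 to 493 RPKM in shNC libraries and 418 to 479 RPKM under shM5. The 15 transport kinesins summed to 158 to 172 RPKM against 148 to 154 RPKM in TM4 cells, and to 229 to 270 RPKM against 223 to 238 RPKM in C18-4 cells. The mitotic sums of all TM4 shNC libraries lay below those of all shM5 libraries. Without Kif5b, the transport sums in TM4 cells overlapped, at 93.4, 94.3 and 104 RPKM in shNC libraries, and all 3 shM5 sums lay within that range.

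**Figure D4:**
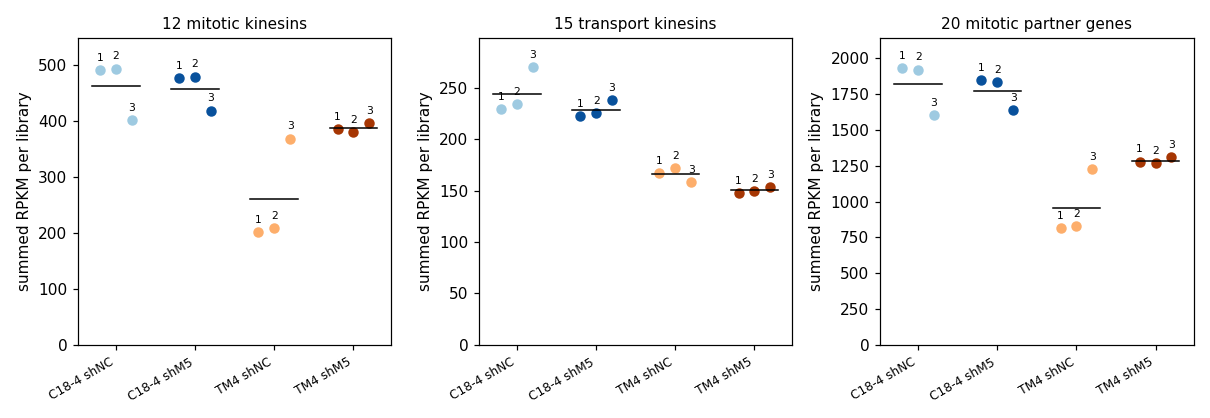
Summed RPKM per library of the mitotic kinesins, the transport kinesins and 20 mitotic partner genes, with replicate numbers above the points and the group mean as a line. In TM4 shNC, replicates 1 and 2 lie at 202 and 209 RPKM for the mitotic kinesins and replicate 3 at 368 RPKM, beside the shM5 libraries.

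A list of 20 spindle, cytokinesis and general cell cycle genes, called mitotic partners here, showed the same order of TM4 libraries. Their sum was 816, 829 and 1224 RPKM in shNC libraries and 1269 to 1309 RPKM under shM5. None was called, all 20 had a positive difference, with a median of 0.41, and 12 had an unadjusted p under 0.05. Over all 11016 genes, 5948 had a positive difference and 26% an unadjusted p under 0.05. Aurkb, the kinase of the chromosomal passenger complex that Kif20a carries, stood at 12.03, 12.2 and 42.7 RPKM against 49.5 to 50.9 RPKM. Racgap1, the other subunit of centralspindlin, stood at 82.3, 80.8 and 109 RPKM against 106 to 109 RPKM, a difference of 0.26 ± 0.13, smaller than that of Kif23. Prc1, the midzone bundler bound by Kif4, differed by 0.17 ± 0.07. In C18-4 cells 0 of 20 partners were called, and 2 had an unadjusted p under 0.05.

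Cargo adaptors and the opposite motor, dynein, were examined in the same way. Of 12 tested cargo adaptors and light chains, 0 were called in either line, with an unadjusted p under 0.05 for 2 in C18-4 cells and 1 in TM4 cells, where the median difference was 0.08. Mapk8ip3, a JNK-interacting cargo adaptor, differed by 0.35 ± 0.11 there. Cytoplasmic dynein and dynactin, which walk toward the minus end, had 0 of 17 genes called in TM4 cells and 0 of 18 in C18-4 cells, with medians of 0.002 and 0.06 and an unadjusted p under 0.05 for 3 and 1. An unadjusted p under 0.05 was found for 12.3% of all genes in C18-4 cells and 26% in TM4 cells. Dync1li1, a dynein light intermediate chain, differed by -0.85 ± 0.29 and Actr1a, the dynactin filament protein, by 0.73 ± 0.26 in TM4 cells, both with an adjusted p of 0.192.

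The difference between the lines in their response to shM5 was tested as an interaction over all 12 libraries. By limma, 0 of 30 kinesins were called, where 0.102% of 11773 genes were. The median was 0.63 over mitotic and -0.004 over transport members, and 11 members had an unadjusted p under 0.05, of which 7 were mitotic. Kif23 differed by 0.82 ± 0.37 (adjusted p = 0.241), more positive in TM4 cells. Without TM4 shNC replicate 3, 17 members were called, where 38% of all genes were, among them 12 of 12 mitotic members. Kif23 then differed by 1.17 ± 0.25 (adjusted p = 0.00472). Of the transport members Kif1c and Kifc3 were then called positive and Kif5b negative, the last at -0.47 ± 0.15. Without replicate 3 of every group, 22 members were called, where 59.9% of all genes were.

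Between the lines, most kinesins stood lower in TM4 than in C18-4 cells. In shNC libraries 20 of 30 were called by limma, 18 lower and 2 higher in TM4 cells, where 34.7% of all genes were lower and 20.5% higher. Over all genes the median log2 difference was -0.15, against -0.83 over mitotic and -0.50 over transport members. The 18 comprised 8 mitotic, 7 transport and 3 other members. With each library centred on its median, 17 were called (15 lower and 2 higher), and over all genes the split went from 4095 lower and 2422 higher to 3459 lower and 3019 higher.

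The largest differences were found in both classes. Kif15 stood at 34.9 to 37.4 RPKM in C18-4 shNC libraries and at 10.6, 10.8 and 15.8 RPKM in TM4 shNC libraries, a log2 difference of -1.55 ± 0.17 (adjusted p = 0.000275). Kif18b, which controls the length of astral microtubules, stood at 30.8 to 37.3 RPKM against 10.4, 10.1 and 17.9 RPKM, a difference of -1.48 ± 0.23. Kif5c, a kinesin-1 heavy chain best known from neurons, stood at 2.53 to 3.37 RPKM against 1.29 to 1.35 RPKM, a difference of -1.10 ± 0.16. These groups did not overlap. Kifc2 met the filter only through the C18-4 libraries. Kif24 (-1.49 ± 0.24), Kif20a (-1.25 ± 0.36), Kif7 (-1.21 ± 0.14), Kifc2 (-1.02 ± 0.28), Kif20b (-0.95 ± 0.23), Kif13a (-0.94 ± 0.18) and Kif1c (-0.93 ± 0.12) were also lower, and for all of them, too, every TM4 library lay below every C18-4 library. The call of Kif20a was lost without replicate 1 or 2 of either group and with the replicate block (adjusted p from 0.0695 to 0.0789), and that of Kifc2 without TM4 shNC replicate 2 (adjusted p = 0.0656). Kif23 was not called (-0.28 ± 0.32, adjusted p = 0.475), but it was without TM4 shNC replicate 3 (-0.63 ± 0.20, adjusted p = 0.0293). This comparison and that of shM5 with shNC in TM4 cells use the same TM4 shNC libraries.

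The 2 kinesins higher in TM4 cells were Kif3c, a kinesin-2 motor that pairs with Kif3a, and Kif21b. Kif3c stood at 6.85, 6.50 and 7.70 RPKM in C18-4 shNC libraries and at 11.2, 11.4 and 9.23 RPKM in TM4 shNC libraries, a difference of 0.59 ± 0.14. Kif21b stood at 4.38, 5.12 and 9.63 RPKM against 13.7, 13.7 and 8.79 RPKM, and its groups overlapped at replicate 3. Its difference was 0.97 ± 0.32 (adjusted p = 0.0398), and the call was lost in 6 alternatives, among them those without replicate 1 or 2 of either group (adjusted p from 0.11 to 0.13). Exons of Kif3c overlap opposite-strand genes over 40.7% of their bases, so its level may hold reads of those genes. Without TM4 shNC replicate 3, 26 of 30 were called, where 69.1% of all genes were, and without C18-4 shNC replicate 2 or TM4 shNC replicate 2 the count was 13, where 42.7% and 43.7% of all genes were called. At the study's threshold, an adjusted p of at most 0.001 and a log2 ratio of at least 1, 2 members were called, where 19.2% of all genes were.

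In shM5 libraries, where no TM4 library but C18-4 replicate 3 stood apart, 25 of 30 were called, 19 lower and 6 higher, against 42.5% and 29% of all genes. Median differences were -0.28 over mitotic and -0.28 over transport members, and -0.12 over all genes. Kif5c (-1.25 ± 0.12), Kif5b (-0.98 ± 0.08), Kif15 (-0.97 ± 0.06), Kif13a (-0.88 ± 0.09), Kif18b (-0.82 ± 0.06), Kif1c (-0.72 ± 0.06), Kif7 (-0.69 ± 0.10) and Kif24 (-0.51 ± 0.16) were the largest on the lower side. The call of Kif24 was lost without C18-4 replicate 1 or 2, without TM4 replicate 1 or 3 and with centring (adjusted p from 0.0548 to 0.0783). Kif5b stood at 92.3, 92.5 and 106 RPKM in C18-4 cells and at 46.6, 46.9 and 53.6 RPKM in TM4 cells. With centring, 18 were called (12 lower and 6 higher), and over all genes the split went from 4986 lower and 3401 higher to 4356 lower and 4002 higher. At the study's threshold 1 member was called, against 25.2% of all genes.

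Kif23, Kif22, Kif4, Kif3c, Kif21a and Kifc3 were the 6 higher in TM4 cells here. Kif23 stood at 39.0, 37.5 and 27.4 RPKM in C18-4 cells and at 49.0, 48.1 and 51.7 RPKM in TM4 cells, a log2 difference of 0.53 ± 0.13 (adjusted p = 0.00665). The difference of this value from that in shNC libraries is the interaction tested above. Kif4, a chromokinesin of the midzone, differed by 0.26 ± 0.07 and Kif22 by 0.24 ± 0.07. The lines thus did not shift the mitotic class as a block: Kif15 and Kif18b were lower and Kif23, Kif22 and Kif4 higher in TM4 shM5 libraries. Exons of Kif4 overlap an opposite-strand gene over 15.1% of their bases.

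**Figure D5:**
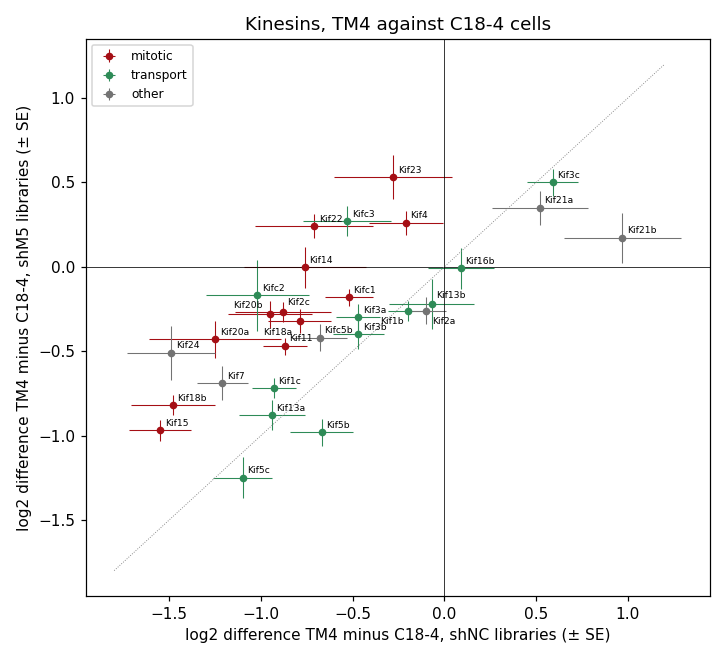
Log2 difference between TM4 and C18-4 cells for each tested kinesin, in shNC libraries (horizontal axis) and in shM5 libraries (vertical axis), with standard errors and the line of equal values dotted. Mitotic kinesins (red) lie above the dotted line, Kif23 from -0.28 to 0.53, whereas transport kinesins (green) lie on both sides of it.

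Partner genes were compared between the lines as well. Of all genes, 34.7% were lower and 20.5% higher in TM4 shNC libraries, and 42.5% and 29% in TM4 shM5 libraries. Of the 20 mitotic partners, 13 were lower in TM4 shNC libraries and 11 lower and 2 higher in TM4 shM5 libraries. Nusap1, a spindle microtubule binder, was lower by -1.89 ± 0.18 and -1.30 ± 0.05, and Birc5, the survivin subunit of the passenger complex, by -1.85 ± 0.21 and -1.41 ± 0.05. Of 12 tested adaptors, 5 were lower and 4 higher in shNC libraries and 8 lower and 4 higher in shM5 libraries. Mapk8ip1, a JNK-interacting adaptor of kinesin-1, was lower by -1.81 ± 0.18 and -1.71 ± 0.07, and Klc4, a kinesin-1 light chain, by -1.49 ± 0.22 and -1.43 ± 0.17. Kifap3, which completes the Kif3a and Kif3b motor, was higher by 0.45 ± 0.15 and 0.55 ± 0.07. Of 17 tested dynein and dynactin genes, 3 were lower and 3 higher in shNC libraries, and 6 lower and 3 higher in shM5 libraries.

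Ratios between related motors within a library do not depend on its scaling. The ratio of Kif20a to Kif20b was 2.12 and 2.13 in TM4 shNC replicates 1 and 2 and 2.60 to 3.34 in the other 10 libraries. The ratio of Kif18b to Kif18a was 1.23 to 1.75 in TM4 libraries and 2.18 to 2.59 in C18-4 libraries. That of Kif3b to Kif3c was 0.772 to 1.22 in TM4 libraries and 1.89 to 2.14 in C18-4 libraries. For these last 2 ratios the ranges of the lines did not overlap, whichever hairpin the cells carried. The ratio of Kif21b to Kif21a was 1.36 to 2.33 in C18-4 libraries and 1.55 to 2.17 in TM4 libraries, and these ranges overlapped. The ratio of Kif5b to Kif5c was 27.8 to 57.4 over the 12 libraries, so the ubiquitous kinesin-1 heavy chain was the more abundant in both lines.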

How the data were processed

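RNA sequencing values of 12 libraries were analysed. The authors sequenced oligo(dT)-selected mRNA, used SOAPaligner to place reads on reference genes, and deposited RPKM values with 2 decimals. The genome build is not given in the sources used here, depth is unknown, and the authors tested reads with DEGseq. Groups and replicate numbers came from the sample labels. log2(RPKM + 0.1) was fitted with limma 3.58.1 in R 4.3.3, with eBayes and a mean-variance trend, over genes whose mean in the fitted libraries reached 0.5 RPKM. Differences and their standard errors are on this scale, which understates changes of low genes. p-values were adjusted over all genes tested, and an adjusted p under 0.05 was called. The members and all lists (mitotic, transport, partner, adaptor, dynein, ATF4 target and cell type marker genes) were chosen with earlier results of these data known. Values in every library are given for Kif23, for called members up to the 10 largest differences per comparison, for the 3 mitotic and 3 transport members with the highest mean in each line, and for some members chosen after their values were seen. Overlaps and 35-base words came from the GENCODE M21 annotation of GRCm38, and promoters from RefSeq.

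Same-numbered C18-4 libraries deviated together (correlations across genes of 0.44, 0.41 and 0.63). Replicate 1 of a group and replicate 2 of the other also did (0.34 both ways). The numbers thus link the replicate 3 libraries, while a pairing of replicates 1 and 2 by number is hardly resolved. Other comparisons were not paired (TM4 0.07, 0.05 and 0.13; between the lines -0.30 to -0.05).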

Additional observations from a re-analysis of the deposited data

How the results depend on the processing

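Pseudocounts of 0.01 and 1 RPKM, filters of a mean above 0 and of 1 RPKM, and eBayes without a trend kept every count of called kinesins within 1.5 times and every class median within the spread between replicates. With the study's threshold (adjusted p of at most 0.001 and a log2 ratio of at least 1), 2 kinesins were called between the lines in shNC libraries (19.2% of all genes) and 1 in shM5 libraries (25.2%). Centring moved the transport median to -0.37 in shNC libraries and the mitotic and transport medians to -0.18 and -0.19 in shM5 libraries, and gave -0.003 for Kif11 and for Kif1c in C18-4 cells. The replicate block gave 1 called kinesin in C18-4 cells and changed no other count by over 1.5 times. Without replicate 3 of every group, 9 kinesins were called in C18-4 cells (26.2% of all genes), 25 in TM4 cells (72.7%) and 22 for the interaction (59.9%), whose mitotic median was 0.94. The mitotic median between the lines in shNC libraries was then -1.21, and Kif11 (-0.01), Kif2c (-0.06) and Kif1b (0.06) changed sign in C18-4 cells.

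With 1 library left out at a time, called kinesins ranged from 0 to 24 in TM4 cells, 0 to 17 for the interaction, 13 to 26 between the lines in shNC libraries and 20 to 26 in shM5 libraries, and were 0 throughout in C18-4 cells. Mitotic medians ranged from 0.50 to 0.92 in TM4 cells, 0.50 to 0.91 for the interaction, -1.13 to -0.72 between the lines in shNC libraries and -0.10 to 0.03 in C18-4 cells, where transport medians ranged from -0.16 to 0.04. In C18-4 cells the sign changed for Kif11 (-0.04 to 0.03), Kif1b (-0.07 to 0.04), Kif1c (-0.02 to 0.03), Kif20a (-0.09 to 0.19), Kif23 (-0.33 to 0.03) and Kif2c (-0.10 to 0.14). The causes were not tested. Depth is unknown, so counting error could not be given.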
